A study of Homo sapiens with 6 samples.

Results

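The messenger RNA levels of 10 genes best known from pluripotent stem cells were examined in human cells at day 9 of a directed differentiation. The genes were POU5F1, NANOG, SOX2, LIN28A, LIN28B, SALL4, DPPA4, ZFP42, PRDM14 and KLF4. They were chosen by symbol, each matching 1 of the 58735 gene identifiers of the count table through GENCODE release 29. The cells were wild-type H9 (WA09), an embryonic stem cell line that was kept on mouse embryonic fibroblast feeders and then driven toward the third pharyngeal pouch endoderm (3PPE), the tissue that gives rise to the thymus. All cultures received Activin A and WNT3A, then retinoic acid, BMP4, SB431542 and IWP2. At day 7 lipofection carried a negative control siRNA into the cells of 3 samples (NC) or a siRNA against HOXA3, a homeobox gene of the pouch, into those of 3 others (Si-HOXA3), and RNA was collected at day 9. No library of undifferentiated H9 cells was analysed here, so the levels show what was present at day 9 and not how far any gene had declined. The labels do not say whether replicates came from separate differentiations, so p-values measure only the spread between these samples.

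Pluripotency rests on a small circuit of transcription factors. POU5F1 (OCT4) and SOX2 bind DNA side by side, activate NANOG and each other, and keep embryonic stem cells undifferentiated. Around this circuit stand other nuclear factors, among them SALL4, PRDM14, KLF4, ZFP42 (REX1) and DPPA4. LIN28A and LIN28B are RNA-binding proteins that block the maturation of the let-7 family of microRNAs, and let-7 in turn represses both LIN28 transcripts. Several of these genes are also used outside pluripotent cells: SOX2 in neural and foregut tissue, KLF4 in epithelia, SALL4 and the LIN28 genes in many early embryonic and germ cells.

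Total counts ranged from 14117150 to 15282307 per library, so that 3 reads, the limit that a count of 0 allows, were worth 0.196 to 0.211 CPM (counts scaled to the normalized library total), which covers counting error only. HOXA3 itself had 248, 240 and 236 counts in the NC libraries and 159, 199 and 220 in the Si-HOXA3 libraries, and the library labelled Si-HOXA3 replicate 3 lay above NC replicate 3 in CPM (log2 fold change -0.27, standard error 0.157, adjusted p = 0.828 by edgeR's quasi-likelihood test). Si-HOXA3 replicate 2 stood apart from the rest: over 10129 genes its root mean square log2 deviation from the other libraries of its group was 0.371, against 0.139 to 0.243 in the other 5 libraries. Its deviations ran lower in longer genes (Spearman -0.580 with exon length across these genes, which are not independent replicates). Markers of the labelled tissue, a list of 15 foregut and pharyngeal genes, were mixed. EPCAM, GATA6, EYA1 and ISL1 were above 10 TPM in the mean, and 10 of the 15 were below 1 TPM. ISL1 is also on the list of amnion and trophoblast genes used below. SOX17, FOXA2, PAX1, NKX2-1 and FOXE1 had at most 4 counts in any library, PAX9 had at most 16 and TBX1 at most 10.

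The 10 genes did not share a common level. In TPM, which scales counts by the length of the union of GENCODE exons and by the library, they spanned LIN28A at a mean of 1063 TPM over the 6 libraries to PRDM14 at 0.0362 TPM. There were 5 genes above 10 TPM in the mean (LIN28A, ZFP42, LIN28B, SALL4 and DPPA4), 3 between 1 and 10 TPM (POU5F1, SOX2 and KLF4) and 2 below 1 TPM (NANOG and PRDM14). Among 17215 protein-coding genes with a count, LIN28A stood above 99.7%, ZFP42 above 96.5%, LIN28B above 91.1% and DPPA4 above 88.8%. In contrast, POU5F1 stood above 43.7% of them and NANOG above 6.32%. LIN28A alone contributed 67.4% to 69.9% of the summed TPM of the 10 genes, and POU5F1 contributed 0.438% to 0.681%.

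**Figure D1:**
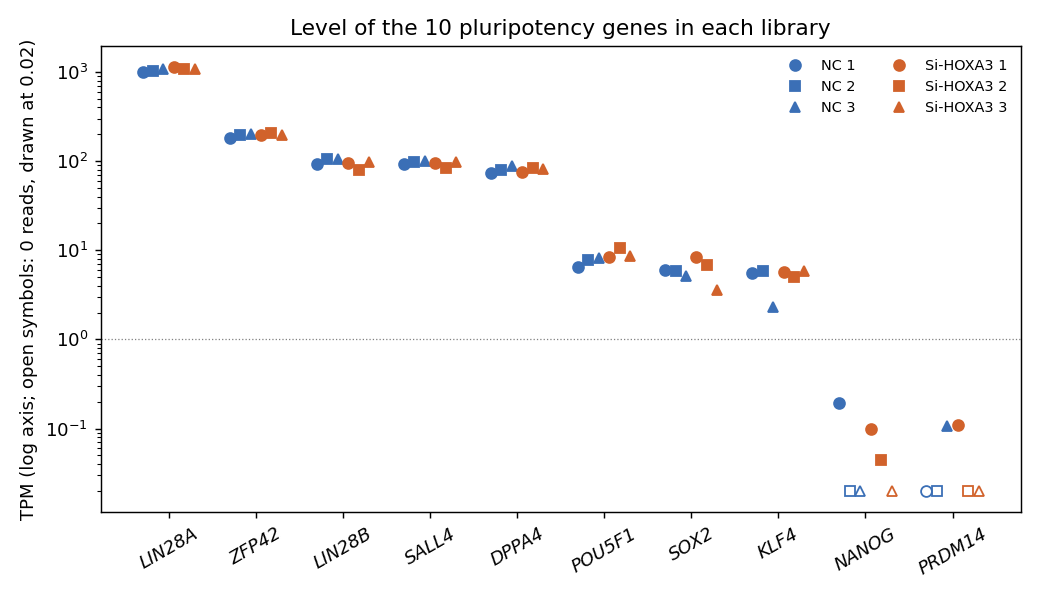
Level of the 10 genes in each library in TPM on a log axis, ordered by mean, with NC in blue and Si-HOXA3 in orange and 1 symbol shape per replicate; open symbols at the bottom are libraries with no read. LIN28A lies near 1063 TPM in all 6 libraries, POU5F1, SOX2 and KLF4 lie between 2.31 and 10.5 TPM, and NANOG and PRDM14 lie below 0.2 TPM.

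Not every step in this order was larger than the spread over the libraries. LIN28A exceeded ZFP42 by 5.19 to 5.75 times within each library, and ZFP42 exceeded LIN28B by 1.86 to 2.60 times. LIN28B and SALL4 could not be ordered, since LIN28B was the higher in 3 of 6 libraries. SALL4 was above DPPA4 in 6 of 6 libraries by 1.01 to 1.27 times with overlapping ranges, and with the longest transcript as length this step reversed, DPPA4 being the higher in all 6 by 1.17 to 1.47 times. The step from DPPA4 to POU5F1 was 7.99 to 11.4 times and separate in all libraries. POU5F1 was above SOX2 in 5 of 6 libraries and SOX2 above KLF4 in 4 of 6, with overlapping ranges for both pairs.

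POU5F1 (ENSG00000204531, chromosome 6 from 31164337 to 31180731 on GRCh38, minus strand) encodes the POU-domain factor without which pluripotency is lost. It had 71, 87 and 90 counts in the NC libraries and 91, 128 and 90 in the Si-HOXA3 libraries, or 4.75, 5.74 and 5.88 CPM against 6.24, 8.49 and 6.32 CPM. The lowest Si-HOXA3 library (6.24 CPM) lay just above the highest NC library (5.88 CPM), and the highest value of all was that of Si-HOXA3 replicate 2. NC averaged 5.46 ± 0.614 CPM and Si-HOXA3 averaged 7.02 ± 1.28 CPM (SD, n = 3 per group). The log2 fold change was 0.36 (standard error 0.204, 95% interval -0.09 to 0.81) and did not pass the test (adjusted p = 0.828, edgeR). Without Si-HOXA3 replicate 2 it was 0.20. POU5F1 has an exon length of 2896 bases, and the part of that library's length trend in this difference was not tested. In bulk RNA, fewer cells with a transcript and less transcript per cell cannot be told apart, so these levels could belong to all cells or to a few.

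The counts of POU5F1 are also the least certain by sequence. Of its 50-base stretches, 37.4% occur in transcripts of other genes, 29.2% in retrocopies and pseudogenes that carry its name and 5.14% in TCF19, a gene on the opposite strand that overlaps it. How reads that match several genes were counted is not given in the sources used here. POU5F1B, an intronless copy, had 20, 20 and 6 counts in the NC libraries and 19, 26 and 11 in the Si-HOXA3 libraries, and TCF19 had 454 to 511 counts in every library. The copy carried fewer counts than POU5F1 in each library, and POU5F1P3, POU5F1P4, POU5F1P5 and POU5F1P6 had 0 to 5. Since the handling of shared reads is unknown, these counts cannot show how many reads of POU5F1 came from copies.

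SOX2 (ENSG00000181449, chromosome 3 from 181711924 to 181714436, plus strand), the HMG-box partner of POU5F1, had 58, 57 and 49 counts in the NC libraries and 79, 72 and 32 in the Si-HOXA3 libraries. Both the highest and the lowest library belonged to Si-HOXA3, and the groups overlapped. NC averaged 3.61 ± 0.363 CPM and Si-HOXA3 averaged 4.15 ± 1.68 CPM (SD, n = 3 per group), and the log2 fold change was 0.20 (standard error 0.309, 95% interval -0.48 to 0.88, adjusted p = 0.9199 by edgeR). Its direction depended on 1 library, being -0.04 without Si-HOXA3 replicate 1 and 0.50 without Si-HOXA3 replicate 3. SOX2-OT, the long noncoding RNA whose locus encloses SOX2 on the same strand, had 0 to 8 counts. Of the neural genes that are often found with SOX2, PAX6 had at most 5 counts and SOX1 at most 2, while HES5 and NEUROG2 had none. NES, an intermediate filament gene also active outside neural cells, carried most of that list (71.2 CPM in NC), and the part of neural cells in the SOX2 level was not tested.

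NANOG (ENSG00000111704, chromosome 12 from 7787794 to 7799141, plus strand), the homeobox factor that POU5F1 and SOX2 activate, had 4, 0 and 0 counts in the NC libraries and 2, 1 and 0 in the Si-HOXA3 libraries. These 7 reads are all that 6 libraries held, and only NC replicate 1 passed the limit of 3 reads. The group totals were 4 and 3 reads (exact permutation test on CPM, two-sided, p = 1, where 3 libraries against 3 cannot give less than 0.1), and no difference was detectable at this depth. Even these reads are uncertain, since 16.8% of the 50-base stretches of NANOG are shared with other genes, and its copies NANOGP7 and NANOGP8 had 0 to 12 and 0 to 4 counts. The region before the RefSeq start of NANOG, which lies inside the longer GENCODE span given above, holds the element at which POU5F1 and SOX2 are known to sit together. It is shown because the levels of all 3 genes of this circuit are reported here. The 14-base composite of TTTGCAT, 1 base of any kind and ACAATG, in capitals and searched on both strands, begins 120 bases before the start in the RefSeq promoter table of GRCh38.p14, at chr12:7789282-7789295 on the plus strand, within the printed stretch of 30 bases at chr12:7789274-7789303.
NANOG element: cagctactTTTGCATTACAATGgccttggt
Of 35116 promoters of 300 bases in the same table, 3 hold this composite, or 0.00854%. Its separate parts are common, with ATGCAAA in 4.46% and ACAATG in 10.8% of promoters on either strand, and both overlap the composite. Promoters of SOX2, LIN28B, DPPA4, ZFP42 and KLF4 were also read: that of SOX2 holds 1 ATGCAAA, 1 of the 2 of LIN28B holds 1 ACAATG, and the others hold none. Promoters of POU5F1, LIN28A, SALL4 and PRDM14 were not read. A match is a description of letters only, and nothing on binding was measured here.

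LIN28A (ENSG00000131914, chromosome 1 from 26410778 to 26429722, plus strand) was by far the most abundant of the 10 genes. It had 15434, 15873 and 16231 counts in the NC libraries and 17079, 17980 and 15308 in the Si-HOXA3 libraries, which is 1033, 1047 and 1061 CPM against 1171, 1193 and 1075 CPM. In CPM the groups did not overlap and every Si-HOXA3 library was the higher, whereas in TPM NC replicate 3 (1071) and Si-HOXA3 replicate 2 (1068) exchanged places. NC averaged 1047 ± 13.7 CPM and Si-HOXA3 averaged 1146 ± 62.7 CPM (SD, n = 3 per group). This is a fold of 1.10 with a 95% interval of 0.931 to 1.29, which did not pass the test (log2 fold change 0.13, standard error 0.107, adjusted p = 0.856, edgeR).

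LIN28B (ENSG00000187772, chromosome 6 from 104936616 to 105083332, plus strand), its paralog, had 2130, 2422 and 2399 counts in the NC libraries and 2172, 1998 and 2078 in the Si-HOXA3 libraries. The lowest library was Si-HOXA3 replicate 2 and the groups overlapped. NC averaged 153 ± 9.14 CPM and Si-HOXA3 averaged 142 ± 8.71 CPM (SD, n = 3 per group; log2 fold change -0.10, standard error 0.0989, 95% interval -0.32 to 0.11, adjusted p = 0.882 by edgeR). The log2 fold change was -0.06 without Si-HOXA3 replicate 2. The antisense gene LIN28B-AS1 had 3 to 28 counts. Within each library the TPM of LIN28A was 10.9, 9.81 and 10.1 times that of LIN28B in NC and 11.8, 13.5 and 11.03 times in Si-HOXA3. These ratios did not overlap between the groups, with means of 10.3 ± 0.531 and 12.1 ± 1.25 (SD, n = 3 each). An exact two-sided permutation test gave p = 0.1, the smallest that the design allows and the value of any 3 against 3 without overlap. The ratio was not a planned comparison, and 13.3% of all single genes tested did not overlap either, so no conclusion is drawn from this p. Without Si-HOXA3 replicate 2, whose deviations follow gene length, the Si-HOXA3 mean was 11.4.

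The let-7 microRNAs, which both LIN28 proteins hold back, are shown because their letters link the 2 most abundant RNA-binding genes of the set to their own regulator. In RefSeq all 9 mature let-7 and miR-98 strands of the 5′ arm have the same seed, bases 2 to 8, given in capitals.
hsa-let-7a-5p: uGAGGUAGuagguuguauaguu
hsa-let-7g-5p: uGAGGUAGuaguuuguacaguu
hsa-miR-98-5p: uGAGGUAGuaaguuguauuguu
LIN28 is known to grip the loop of the let-7 precursor at a GGAG motif. Of 11 hairpins in which both arms were found, 8 hold GGAG in the loop. MIRLET7G (chr3:52268278-52268361, minus strand, GRCh38.p14) is one that does, with the motif in capitals, and MIRLET7A3 (chr22:46112749-46112822, plus strand) is one that does not.
MIRLET7G: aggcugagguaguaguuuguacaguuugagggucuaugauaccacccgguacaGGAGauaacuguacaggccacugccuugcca
MIRLET7A3: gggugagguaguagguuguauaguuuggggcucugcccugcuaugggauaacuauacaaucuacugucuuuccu
The complement of the seed, CTACCTC, was searched on the sense strand in the 3′ untranslated regions of GENCODE 29. It occurs in 3 of the 10 genes, 1 time in LIN28A, 4 times in LIN28B and 1 time in SALL4, against 10.5% of 19109 coding genes with at least 1 site and 0.0733% with at least 4. The sites of the LIN28 genes, with the match in capitals, lie at chr1:26427354-26427378 for LIN28A and at chr6:105078818-105078842, chr6:105081245-105081269, chr6:105081427-105081451 and chr6:105082866-105082890 for LIN28B, all on the plus strand of GRCh38. That of SALL4 lies at chr20:51782915-51782939 on the minus strand.
LIN28A site: cctattgaaCTACCTCatttttgcc
LIN28B site 1: ttgcaaagtCTACCTCatgcaagta
LIN28B site 2: tgatagtaaCTACCTCtgagtttga
LIN28B site 3: agcaaaaggCTACCTCatagttgat
LIN28B site 4: tggtgttgaCTACCTCttgaatcac
SALL4 site: ttaatttatCTACCTCatttatttt
Libraries of messenger RNA do not measure mature let-7, and the let-7 and miR-98 gene rows held 0 to 20 counts, the most being MIRLET7D in Si-HOXA3 replicate 2.

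The other genes of the LIN28 and let-7 axis were abundant as well, and 14 of 16 were above 10 TPM. Of 15 tested, 0 passed the adjusted threshold, 7 had a positive and 8 a negative log2 fold change, and their median was -0.02 against 0.0019 over all genes tested. HMGA1, a chromatin protein and let-7 target, was at 1281 TPM (log2 fold change 0.21). IGF2BP1 and IGF2BP2, RNA-binding proteins of early embryonic cells, had log2 fold changes of -0.13 and 0.04. TRIM71, a let-7 target whose 3′ untranslated regions hold 6 of the seed sites, was at 166 TPM with a log2 fold change of -0.07. DICER1, which cuts the precursor to the mature microRNA, was lower in all Si-HOXA3 libraries (3698, 2916 and 3544 counts against 3972, 4395 and 4318) with a log2 fold change of -0.27 and an adjusted p of 0.777 by edgeR. Among the 15 tested genes of this list it alone was separate between the groups, as 6.89% of all genes tested were with Si-HOXA3 lower. DICER1 has an exon length of 12294 bases, and Si-HOXA3 replicate 2 was its lowest library, so the part of that library's length trend in this difference was not tested.

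SALL4 (ENSG00000101115, chromosome 20 from 51782331 to 51802520, minus strand), a zinc finger repressor that works with POU5F1 in stem cells and is also expressed in germ cells and early embryos, had the smallest fitted difference of the 8 genes tested. It had 2053, 2168 and 2215 counts in the NC libraries and 2060, 2055 and 2016 in the Si-HOXA3 libraries, with overlapping groups. It averaged 142 ± 3.80 CPM in NC against 139.7 ± 2.93 CPM in Si-HOXA3 (SD, n = 3 per group), and the 95% interval of the log2 fold change ran from -0.22 to 0.18 around -0.02 (adjusted p = 0.9701, edgeR), a sign that upper-quartile normalization turned (5e-04).

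DPPA4 (ENSG00000121570, chromosome 3 from 109326141 to 109337572, minus strand), a chromatin-bound protein named for its appearance with pluripotency, had 1398, 1554 and 1658 counts in the NC libraries and 1424, 1765 and 1468 in the Si-HOXA3 libraries. The groups overlapped, with the highest library in Si-HOXA3 and the lowest in NC. Its means were 101 ± 7.43 and 106 ± 10.04 CPM (SD, n = 3 each; log2 fold change 0.06, standard error 0.107, 95% interval -0.17 to 0.30, adjusted p = 0.929 by edgeR), and the fold change was -0.02 on the log2 scale without Si-HOXA3 replicate 2. DPPA2, its neighbour and binding partner, was far lower at 1.47 TPM against 80.7 TPM for DPPA4, with 9, 7 and 14 counts in NC and 6, 8 and 3 in Si-HOXA3.

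ZFP42 (ENSG00000179059, chromosome 4 from 187995771 to 188005050, plus strand), a zinc finger factor long used as a stem cell marker, was the second most abundant at 196 TPM. It had 1822, 1990 and 2046 counts in the NC libraries and 1970, 2295 and 1848 in the Si-HOXA3 libraries. The groups overlapped, with means of 129 ± 6.17 and 139 ± 11.8 CPM (SD, n = 3 each). The log2 fold change was 0.11 (standard error 0.101, 95% interval -0.11 to 0.33, adjusted p = 0.875, edgeR), and it was 0.04 without Si-HOXA3 replicate 2 and 0.07 without NC replicate 1. ZFP42 has an exon length of 2656 bases and was highest in Si-HOXA3 replicate 2. The part of that library's length trend in its difference was not tested.

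KLF4 (ENSG00000136826, chromosome 9 from 107484852 to 107490482, minus strand), a reprogramming factor that is also active in epithelia, had 77, 83 and 32 counts in the NC libraries and 79, 78 and 77 in the Si-HOXA3 libraries. NC replicate 3 lay apart from the other 5 libraries, which ranged from 5.16 to 5.47 CPM against its 2.09 CPM. The log2 fold change of 0.33 (standard error 0.310, 95% interval -0.35 to 1.01, adjusted p = 0.876 by edgeR) was 0.005 without that library. PRDM14 (ENSG00000147596, chromosome 8 from 70051651 to 70071693, minus strand), a repressor of early germ cells and pluripotent cells, had 1 count in NC replicate 3, 1 count in Si-HOXA3 replicate 1 and none in the other 4 libraries (exact permutation test, two-sided, p = 1). No difference in PRDM14 was detectable at this depth.

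**Figure D2:**
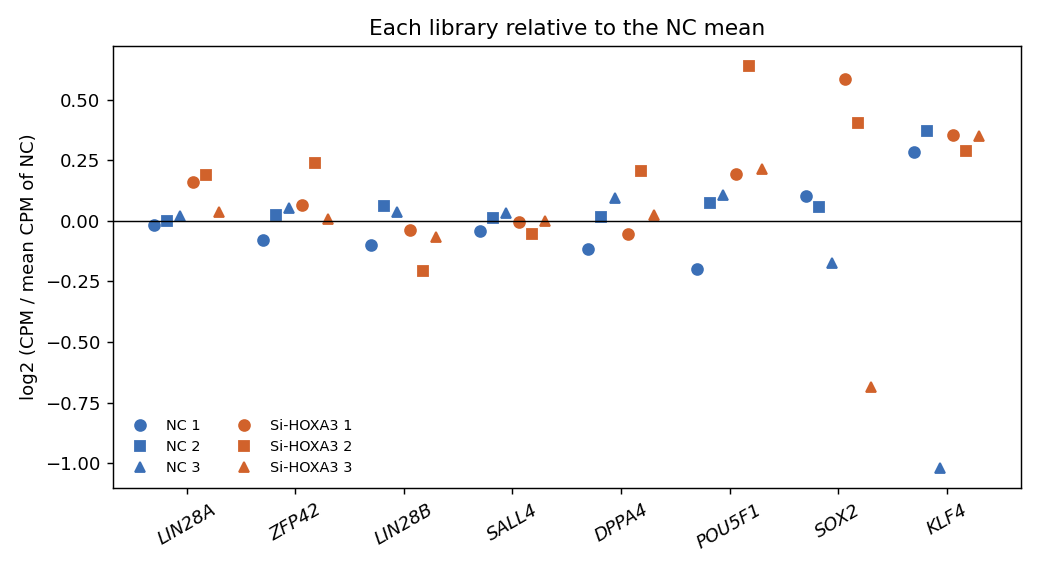
CPM of each library relative to the NC mean on a log2 scale, for the 8 genes with enough counts for the test, with the same colours and symbols as the plot of levels. The Si-HOXA3 libraries lie above all NC libraries for LIN28A and POU5F1, NC replicate 3 (32 counts) departs from the others for KLF4, and for SOX2 the Si-HOXA3 libraries lie on both sides of NC.

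Across the set, 8 of the 10 genes had enough counts for the test and 0 of these 8 had an adjusted p under 0.05 (edgeR), where 1 of all 16561 genes tested did (0.00604%). None of the 8 had an unadjusted p under 0.05 either, against 6.36% of all genes (3.79% higher and 2.57% lower in Si-HOXA3), and DESeq2 on the same genes also called 0 of them. The groups did not overlap for 2 of the 8, POU5F1 and LIN28A, both with Si-HOXA3 higher. Over all genes tested 6.38% were separate in that direction, 6.89% in the other and 13.3% in either. There were 6 positive and 2 negative log2 fold changes with a median of 0.12, against 0.0019 over all genes, and the median of their sizes (0.12) was below that of all genes (0.14). The median width of their 95% intervals was 0.47 against 0.72, so most of these genes were measured more closely than the average gene. For the 5 abundant genes the intervals lay between -0.32 and 0.37 on the log2 scale, whereas for POU5F1, SOX2 and KLF4 they reached 0.81, 0.88 and 1.01. The summed level of the 10 genes was 1543, 1598 and 1616 CPM in NC and 1711, 1750 and 1609.5 CPM in Si-HOXA3, a log2 ratio of the means of 0.09. Without LIN28A the sums were 539 ± 25.1 and 544 ± 11.6 CPM (SD, n = 3 each), whose log2 ratio was 0.01.

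**Figure D3:**
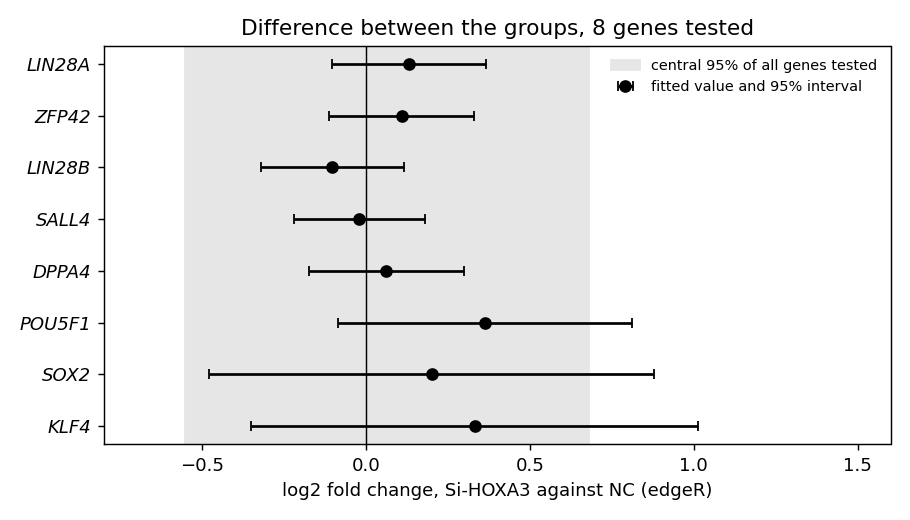
Log2 fold change of Si-HOXA3 against NC from edgeR for the 8 genes tested, with 95% intervals as bars and the central 95% of all 16561 genes tested (-0.55 to 0.68) in grey. All 8 intervals include 0, and those of POU5F1, SOX2 and KLF4 are the widest.

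Other genes that are commonly measured with this set covered the same broad range of levels. Of 30 associated pluripotency genes, 8 were above 10 TPM, 16 were below 1 TPM and 11 never passed 3 counts. DPPA3, DPPA5, UTF1, FGF4, GDF3 and FOXD3 had no read in any library, and TDGF1, the NODAL co-receptor, had 3 reads in Si-HOXA3 replicate 1 alone. Of the 13 tested, 0 passed the adjusted threshold, 5 had a positive and 8 a negative log2 fold change, and the median was -0.07. PODXL, a surface sialomucin of stem cells and many epithelia, was the highest at 224 TPM (log2 fold change -0.24). L1TD1, an RNA-binding protein that associates with LIN28A, had 2179, 2299 and 2060 counts in the NC libraries and 2693, 2797 and 2197 in the Si-HOXA3 libraries. The groups of L1TD1 did not overlap in CPM (144 ± 8.64 against 175 ± 17.8, SD, n = 3 each), and its log2 fold change of 0.28 had an adjusted p of 0.725 by edgeR. Of the 13 tested genes of this list, 1 was separate with Si-HOXA3 higher and 2 with Si-HOXA3 lower. Over all genes tested these shares were 6.38% and 6.89%. POLR3G, a polymerase III subunit of undifferentiated cells, had 170, 169 and 189 counts against 120, 155 and 98 (log2 fold change -0.46, adjusted p = 0.729, edgeR). TERT, the catalytic subunit of telomerase, had 11, 19 and 17 counts against 7, 9 and 8 (log2 fold change -0.91, adjusted p = 0.784, edgeR).

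Of 13 factors of the naive state, 8 were below 1 TPM, and KLF17, DPPA3 and DPPA5 had at most 1 count. KLF5, TBX3 and STAT3, which are also active in other tissues, were above 10 TPM with log2 fold changes of -0.01, -0.10 and 0.10. TFCP2L1, a factor of naive cells and of several epithelia, had 362, 333 and 282 counts in the NC libraries and 218, 187 and 223 in the Si-HOXA3 libraries. Its groups did not overlap, and its log2 fold change of -0.59 had an adjusted p of 0.513 by edgeR. TFCP2L1 was 1 of 5 tested genes of this list and was named for this separation, which 6.89% of all genes tested had with Si-HOXA3 lower. Among 19 protein partners and cofactors of the 10 genes, 17 were tested, 0 passed, and the median log2 fold change was 0.03. The most abundant were MTA2, NR6A1 and WDR5. For 2 of the 17, RIF1 (log2 fold change -0.16) and SUZ12 (-0.10), the groups did not overlap with Si-HOXA3 lower, as for 6.89% of all genes tested. RIF1 has an exon length of 18166 bases and was lowest in Si-HOXA3 replicate 2. The part of that library's length trend in its difference was not tested.

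**Figure D4:**
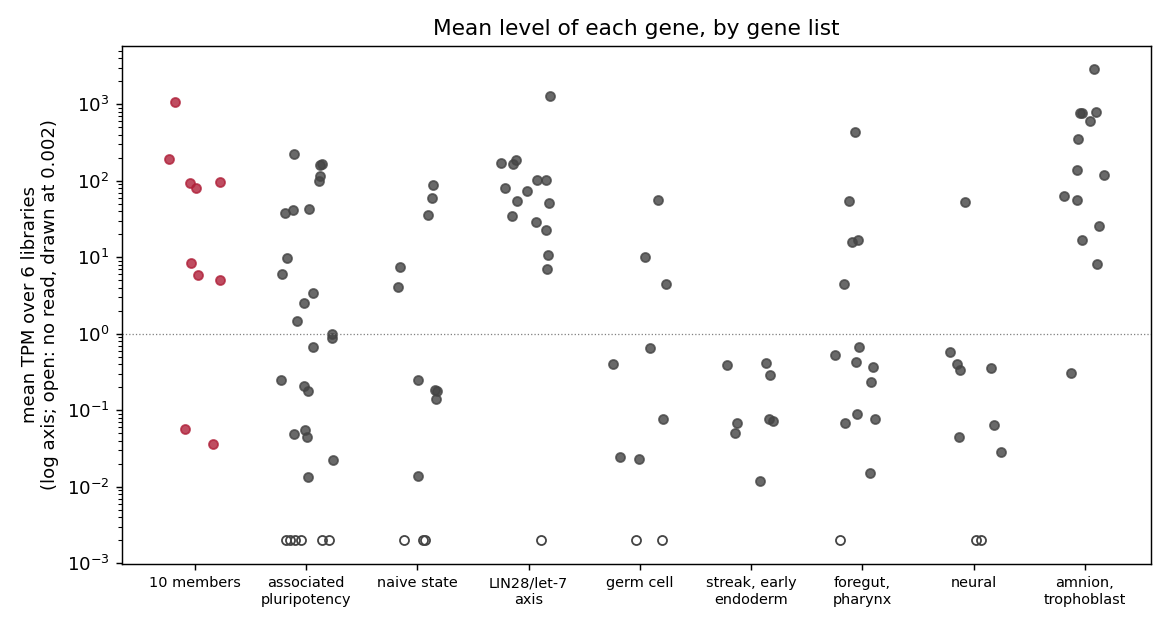
Mean TPM over the 6 libraries of each gene, on a log axis, by gene list, with the 10 genes in red and genes without a read as open symbols at the bottom. The LIN28 and let-7 axis and the amnion and trophoblast list lie mostly above 10 TPM, whereas 16 of 30 associated pluripotency genes and all 8 streak and early endoderm genes lie below 1 TPM.

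Markers of other cells that can express these genes were read beside them. Of 10 germ cell genes, NANOS3 had at most 4 counts, and TFAP2C, which amnion and trophoblast share, was the highest. The summed level of that list was 61.8 to 62.7 CPM in NC and 57.6 to 66.5 CPM in Si-HOXA3. The 8 genes of the primitive streak and early endoderm summed to at most 1.57 CPM in any library. By contrast, 12 of 14 amnion and trophoblast genes were above 10 TPM in the mean, among them IGFBP3 (2867 TPM), GABRP (795 TPM) and VTCN1 (773 TPM), and HAND1, KRT7 and GATA3 ranked above 99.5%, 99.3% and 98.4% of protein-coding genes. This list summed to 6090 to 6598 CPM in NC and 6609 to 7333 CPM in Si-HOXA3, and 4 of its 13 tested genes were higher in every Si-HOXA3 library, where 6.38% of all genes tested were, among them TFAP2B (log2 fold change 0.60, adjusted p = 0.486, edgeR) and TFAP2A (0.23, adjusted p = 0.781, edgeR). Of the 10 mesoderm and mesenchyme genes, 3 were above 10 TPM, 5 were below 1 TPM and 2 of these had no read. Led by COL1A1 and VIM, the 10 genes summed to 1679 to 1785 CPM in NC and 1872 to 2069 CPM in Si-HOXA3. Neither sum overlapped between the groups, with Si-HOXA3 higher, as LIN28A and POU5F1 were in CPM. IGFBP3 made up 48.1% to 52.5% of the amnion and trophoblast sum, and without it the groups overlapped (3160 to 3383 CPM in NC, 3241 to 3516 CPM in Si-HOXA3). COL1A1 made up 72.9% to 80.0% of the mesoderm and mesenchyme sum, which without it was 336 to 365 and 392 to 508 CPM. Most of this remainder was VIM, which ran from 227 to 264 CPM over the NC libraries and from 299 to 433 over the Si-HOXA3 libraries. VIM was the only 1 of the 5 tested genes of this list without overlap. KDR and PDGFRA went the other way, with log2 fold changes of -0.20 and -0.13, so the gap was not shared by the list. The part of these cell types in the levels of LIN28A and POU5F1 was not tested.

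The genes whose pattern over the 6 libraries was most like that of POU5F1 were ZNF581, ACOT13 and PKIB, out of 10129 genes with a mean of at least 10 CPM. Their root mean square differences from its centred log2 CPM were 0.0320, 0.0626 and 0.0628, against a spread of POU5F1 itself of 0.247. For SOX2 they were YPEL3 (0.138), EIF4EBP1 (0.192) and the mitochondrial MT-ND3 (0.1996), against its own 0.405. With 6 libraries of about equal depth and counts as low as 32, such likeness is a description only. NANOG had too few reads for a pattern.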

How the data were processed

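The authors deposited raw counts of reads per gene for 6 single-read libraries, as whole numbers without normalization. The methods name LM-Seq, the labels also a SMARTER kit. The submitters' processing notes name the mouse builds GRCm38 and mm10, whereas all 58735 identifiers are human and were found in GENCODE 29 on GRCh38. Aligner and counter are not given in the sources used here. Libraries were grouped by their labels.

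Counts were tested in R 4.3.3 with edgeR 4.0.16 (filterByExpr, TMM, robust quasi-likelihood test, two-sided) over 16561 genes with Benjamini-Hochberg adjustment. CPM used the normalized library size. TPM used union exon length. Alternatives were DESeq2 (version 1.42.0 here, the study naming DESeq2 without a version), limma 3.58.1 with voom weights, and other normalizations, filters and left-out libraries.

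Members and gene lists were chosen with earlier results of these data known. Named were all 10 members, and from each list every called gene, the 3 tested genes of highest TPM, and up to 3 without overlap of largest change, with copies, overlapping genes and 3 nearest patterns. Genes named as absent, as defining markers or as partners were added after their values were seen. Promoters and microRNAs came from RefSeq (GRCh38.p14).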

Additional observations from a re-analysis of the deposited data

How the results depend on the processing

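None of the 8 genes tested passed an adjusted p of 0.05 under any alternative run, and of 104 log2 fold changes 100 kept their direction; the lowest adjusted p was 0.4897 (LIN28A). The exceptions were SOX2 without Si-HOXA3 replicate 1 (-0.0355; up to 0.4962 with another library left out), SALL4 with upper-quartile normalization (5e-04), and DPPA4 with limma-voom quality weights (-0.009) and without Si-HOXA3 replicate 2 (-0.0188; up to 0.1189 with another left out). Over all genes the count of calls depended on the setting: 1 in the edgeR fit, 38 with DESeq2, 100 with no filter (where all 10 genes were tested and 0 called), 67 with limma-voom quality weights and 4 with the replicate block. It ranged from 1 to 24 with each library left out in turn, 24 being without Si-HOXA3 replicate 2. Same-numbered samples were not treated as pairs in the main fit. Correlations of same-numbered deviations were 0.30, 0.16 and -0.16, and those of differently numbered ones ran from -0.29 to 0.17. With 3 libraries per group these values cannot decide whether the replicate numbers pair the samples. The log2 ratio of the summed level was 0.09, between 0.07 and 0.13 with a library left out, and the ratio of LIN28A to LIN28B (log2 0.23) stayed between 0.15 and 0.30, an alternative chosen after seeing the data. In the order of levels, 5 of 10 ranks were kept in CPM and 6 with the longest transcript as length. The latter reversed SALL4 and DPPA4 in all 6 libraries, and other steps changed too. LIN28B was then above SALL4 in 2 of 6 libraries instead of 3, and SOX2 above KLF4 in 3 of 6 instead of 4. At counts of 32 to 128 the intervals of POU5F1, SOX2 and KLF4 admit folds up to 1.76, 1.84 and 2.02.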
